A study of Bos taurus with 68 samples.

Results

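Transferrin (TF), ceruloplasmin (CP), retinol binding protein 4 (RBP4), apolipoprotein A1 (APOA1) and SERPINA3-3 are genes whose protein products the liver releases into plasma. Each was represented by 1 cDNA clone, chosen by the gene symbol of the platform's annotation after updating through gene identifiers, so 5 of the 5693 annotated clones were examined. Every clone was spotted 2 times on an array. Total RNA from bovine liver was co-hybridised with a reference standard RNA on 2-colour cDNA arrays, with 2 arrays of exchanged dyes for every cow on every day. The same 5 cows, numbered 6934, 6983, 7079, 7186 and 7188 in the labels, were followed through calving. In the larger of 2 deposited tables, 5 cows were measured on days -65 and -30, 3 on day -14, 5 on day 1, 3 on day 14, 5 on day 28 and 4 on day 49 relative to calving, giving 30 cow-days on 60 arrays. The smaller table held 4 further cow-days on 8 arrays, taken from cow 6934 (days -14 and 14), cow 7079 (day -14) and cow 7188 (day 14). The labels name no treatment, breed, parity or ration, and all cows are described alike.

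Hepatocytes make most circulating plasma proteins. TF carries ferric iron to cells that take it up through the transferrin receptor, CP carries copper and oxidises ferrous iron so that TF can bind it, RBP4 carries retinol from the liver in a complex with transthyretin, and APOA1 is the main protein of high-density lipoprotein and accepts cholesterol from cells. The SERPINA3 genes encode secreted serine protease inhibitors. In the inflammatory acute phase, CP and SERPINA3 are known as positive acute phase proteins, whereas TF, RBP4 and APOA1 are known as negative ones. In dairy cows the days around calving join high demand for milk with metabolic and inflammatory change in the liver.

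All values below are taken as log2 ratios of liver over reference, after the median of an array was subtracted from its values. The liver dye is labelled but the numerator of the ratio is not, so this direction is likely, not settled, and every sign, of differences between days too, turns if the deposited ratio was Cy3 over Cy5. The direction was inferred from tissue genes, so whether liver genes lie above or below the reference is not an independent result. The log2 base was likewise inferred, and ratios converted from it rest on that base. A ratio sets a clone against the reference only and does not rank the amounts of different transcripts. The exchanged arrays correlated below 0 across rows before 1 of them was turned for 25 pairs of 30, and 14607 to 16288 rows of the larger table had a value on an array. Liver pieces hold several cell types, so fewer cells of a type and less RNA per cell cannot be told apart. No channel intensities were used here, so the distance of either channel from background is unknown.

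The SERPINA3-3, RBP4, CP and TF clones lay far above the reference, and APOA1 lay at it. SERPINA3-3 averaged 5.91 ± 0.66 (SD, n = 5 cows, each the mean of its days), RBP4 5.0 ± 0.85, CP 4.95 ± 0.48 and TF 3.78 ± 0.29. Each of these 4 clones was above 0 on 60 of 60 arrays. Ordered by the mean ratio over cow-days, SERPINA3-3 was first, RBP4 in place 5, CP in place 6 and TF in place 19 of the 5280 clones tested, which become places 5280, 5276, 5275 and 5262 if the ratio is turned. APOA1 averaged 0.06 ± 0.21, was above 0 on 30 of 60 arrays and stood in place 2014, or 3267 if turned. The reference RNA is not described further in the labels, so an APOA1 ratio near 0 says that liver and reference gave like signals after centring.

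**Figure D1:**
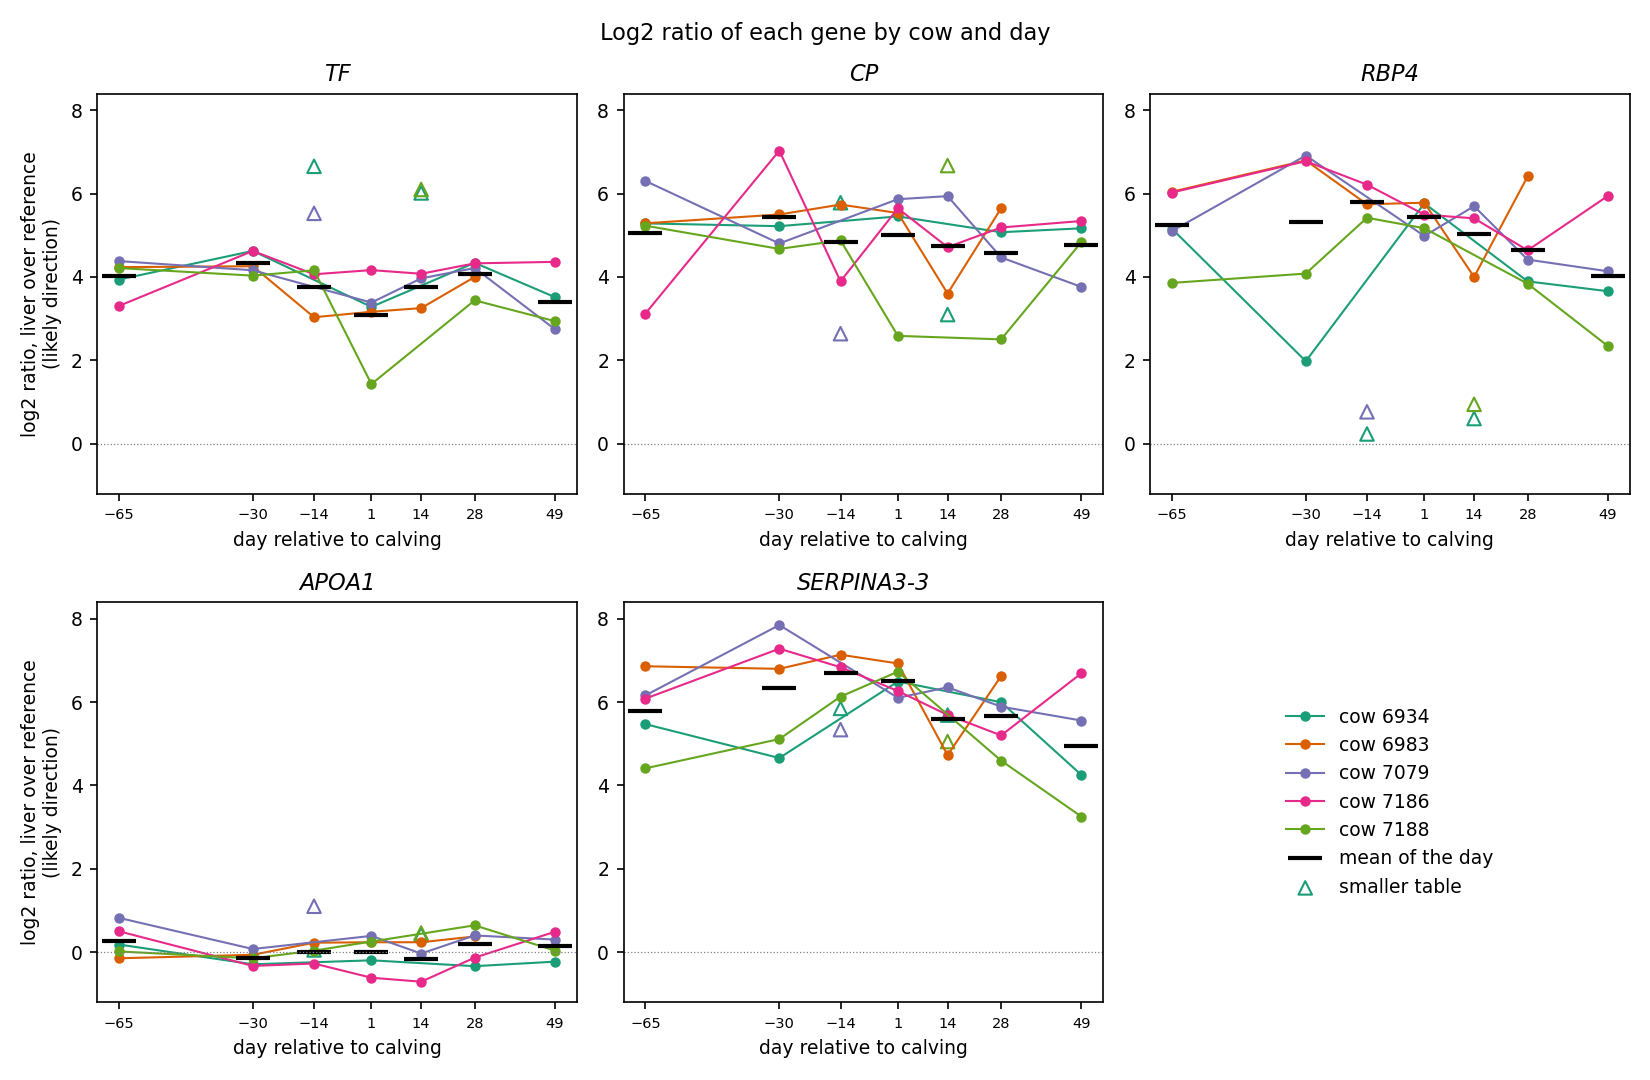
Log2 ratio of liver over reference (y axis, likely direction) against the day relative to calving (x axis) for TF, CP, RBP4, APOA1 and SERPINA3-3. Filled points joined by lines are single cows in the larger table, black bars are the means of a day, and open triangles in the cow's colour are the smaller table; TF has its lowest mean on day 1 with cow 7188 lowest at 1.43, and the RBP4 triangles lie between 0.24 and 0.95.

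None of the 5 genes differed between days past the threshold of a Benjamini-Hochberg adjusted p of 0.05 in limma. Over all 5280 clones tested, 1 passed the F test over the 7 days (0.0189%), 0 passed for lactation (days 14, 28 and 49) against prepartum (days -65, -30 and -14) (0%), 1 passed for day 1 against day -30 (0.0189%) and 0 passed for day 28 against day 1 (0%). At an unadjusted p under 0.05 the counts were 277, 204, 442 and 413 in the same order. The clone that passed the F test (limma adjusted p = 0.0146) and the one that passed for day 1 against day -30 was LOC327709, a glutathione transferase, at -1.78 ± 0.25 (SE) with a limma adjusted p of 0.00203. With so few calls among all clones, the absence of a call among 5 genes is near the background and shows no stability: the 95% intervals of the 5 genes reached from ± 0.27 for APOA1 to ± 1.31 for CP. In each gene, every neighbouring pair of days in the order of the means lay closer than the larger SD of the pair. Neighbours in such an order tend to lie close, and the SD is over cows, so this does not compare days within cows.

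TF had its lowest mean on day 1. Its values on day 1 were 3.28, 3.17, 3.39, 4.17 and 1.43 in cows 6934, 6983, 7079, 7186 and 7188, against 4.63, 4.26, 4.16, 4.62 and 4.03 on day -30 in the same cows. The differences were -1.34, -1.09, -0.78, -0.46 and -2.60, so all 5 cows were lower on day 1, and the ranges of the days overlapped because cow 7186 on day 1 exceeded cow 7188 on day -30. Of the 5101 tested clones with values in all 5 cows on both days, 288 (5.65%) were likewise lower in every cow. The estimate was -1.25 ± 0.34 (SE), a ratio of 0.419 with a 95% interval of 0.259 to 0.680, with an unadjusted p of 0.00112 that placed TF 16th by p in limma's list, and a limma adjusted p of 0.320. Without cow 7188 the mean difference was -0.92, and with arrays scaled to a common median absolute deviation the estimate was -2.74.

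By day 28 TF stood at 4.34, 4.00, 4.21, 4.33 and 3.44 in the same order of cows, each above that cow's day 1 value. The estimate for day 28 against day 1 was 0.98 ± 0.34 (SE), a ratio of 1.97 with a 95% interval of 1.21 to 3.19 (unadjusted p = 0.00806, limma adjusted p = 0.535). It was 0.47 with only Cy5 arrays, 1.48 with only Cy3 arrays and 1.56 with scaled arrays. All 5 cows were higher on day 28, as were 318 (6.22%) of 5112 clones. Both differences use the same day 1 samples, so the second gives no separate support for the first. Over the 7 days the means were 4.02 ± 0.43 (SD) on day -65, 4.34 ± 0.27 on day -30, 3.75 ± 0.62 on day -14, 3.09 ± 1.00 on day 1, 3.77 ± 0.45 on day 14, 4.06 ± 0.37 on day 28 and 3.39 ± 0.73 on day 49, over the numbers of cows given above. Day 49 was thus the second lowest, with cow 7079 at 2.75, cow 7188 at 2.94, cow 6934 at 3.52 and cow 7186 at 4.36. For the days as a whole limma gave F = 3.17 (unadjusted p = 0.0202, adjusted p = 0.877). Lactation against prepartum gave -0.36 ± 0.22 (SE; limma adjusted p = 1.00), lower in 4 of 5 cows, each over the days it had.

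Cow 7188 on day 1 held the lowest TF value of all 30 cow-days. Both of its arrays were low, at 0.37 with liver in Cy3 and 2.50 with liver in Cy5. CP was also low there at 2.59, while RBP4 at 5.17, SERPINA3-3 at 6.73 and APOA1 at 0.26 were not among their lowest. None of the cell type markers passed for day 1 against day -30 (limma). Below 0 were 11 of 13 macrophage and Kupffer cell markers (median -0.41) and 11 of 15 stellate cell and matrix markers (median -0.39). So were 3 of 4 hepatocyte markers (median -0.26), with ASGR2 at 0.68. In the other lists, 4 of 6 endothelial (median -0.08), 6 of 10 bile duct (-0.04) and 3 of 4 lymphocyte and neutrophil markers (-0.25) were below 0. The 1 erythroid and platelet marker was at -0.44. Over all clones the median was -0.06, and 42.9% were above 0. The mean log2 ratio of the macrophage list lay between 1.09 and 1.43 in the 5 cows on day 1 and between 0.80 and 2.61 on day -30, that of the stellate list between -1.77 and -0.99 on day 1 and between -1.75 and -0.58 on day -30, and that of the hepatocyte list between 1.45 and 1.86 on day 1 and between 0.75 and 2.78 on day -30. Their part in the TF difference was not tested.

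CP varied more within a day than between days. Its day means ran from 5.05 ± 1.16 (SD) on day -65 and 5.44 ± 0.95 on day -30 to 4.84 ± 0.92 on day -14, 5.02 ± 1.37 on day 1, 4.75 ± 1.17 on day 14, 4.58 ± 1.23 on day 28 and 4.78 ± 0.71 on day 49. On day 1, cows 6934, 6983, 7079 and 7186 lay close together at 5.45, 5.53, 5.87 and 5.64, and cow 7188 lay apart at 2.59. Cow 7186 spanned 3.12 on day -65 to 7.03 on day -30, the lowest and highest of those days. For the days as a whole F was 0.415 (limma adjusted p = 0.996). The estimates were -0.51 ± 0.42 (SE) for lactation against prepartum, -0.43 ± 0.63 for day 1 against day -30 and -0.44 ± 0.63 for day 28 against day 1. Day 1 against day -30 was at -0.01 without cow 7188 and at -2.12 with arrays scaled to a common median absolute deviation.

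RBP4 had lower estimates in lactation than before calving. The cow means over days 14, 28 and 49 averaged 4.43 ± 0.97 (SD, n = 5), against 5.31 ± 1.23 over days -65, -30 and -14. Each cow mean used the days that cow had in the larger table, so the cows rest on unlike days. Cow 6934 lacked days -14 and 14, cow 6983 day 49, cow 7079 day -14 and cow 7188 day 14. The within-cow differences were 0.21, -0.99, -1.26, -1.01 and -1.36 in cows 6934, 6983, 7079, 7186 and 7188, so 4 of 5 cows were lower in lactation. The estimate was -0.97 ± 0.39 (SE), a ratio of 0.512 with a 95% interval of 0.291 to 0.900 (unadjusted p = 0.0221, limma adjusted p = 1.00). It stood in place 85 by p, and was at -0.45 with the 5 pairs left out that had not correlated below 0. With arrays scaled to a common median absolute deviation it was at -0.68.

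The RBP4 day means were 5.24 ± 0.89 (SD) on day -65, 5.31 ± 2.21 on day -30, 5.79 ± 0.40 on day -14, 5.44 ± 0.36 on day 1, 5.04 ± 0.91 on day 14, 4.64 ± 1.05 on day 28 and 4.02 ± 1.49 on day 49. The spread on day -30 came from 6.80, 6.91 and 6.78 in cows 6983, 7079 and 7186 beside 1.98 in cow 6934 and 4.08 in cow 7188. Cow 6934 was at 5.77 on day 1, so the estimate for day 1 against day -30, 0.13 ± 0.60 (SE), had its sign from single cows: the mean difference was -0.78 without cow 6934 and -0.11 without cow 7188, and the estimate was -0.85 with arrays scaled to a common median absolute deviation. Day 28 against day 1 gave -0.80 ± 0.60, lower in 4 of 5 cows, and -0.30 with only Cy5 arrays, -1.29 with only Cy3 arrays and -0.15 with scaled arrays.

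APOA1 had the smallest spread over cow-days of the 5 genes. Its day means lay between -0.16 ± 0.49 (SD, n = 3) on day 14 and 0.28 ± 0.39 (n = 5) on day -65, and its single cow-days between -0.71 and 0.83. The estimates were 0.00 ± 0.13 (SE) for lactation against prepartum, 0.17 ± 0.20 for day 1 against day -30 and 0.18 ± 0.20 for day 28 against day 1. The last 2 were above 0 in 4 of 5 cows each, and cow 7186 for day 1 and cow 6934 for day 28 were the exceptions at -0.28 and -0.14. For lactation against prepartum the 95% interval of the ratio was 0.832 to 1.21. The 2 spots of the clone correlated at 0.69 over 60 arrays and its exchanged arrays at 0.19 over 30 cow-days. Much of the small spread was thus not shared between the arrays of a cow-day.

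SERPINA3-3 had the largest estimate of the 5 for lactation against prepartum. The cow means averaged 5.30 ± 0.83 (SD, n = 5) in lactation, against 6.19 ± 0.96 before calving. As for RBP4, each cow mean used only the days that cow had. Within cows the differences were 0.06, -1.25, -1.07, -0.87 and -1.29 in the order of the cow numbers, so cow 6934 was again the one that was not lower. The estimate was -1.01 ± 0.30 (SE), a ratio of 0.495 with a 95% interval of 0.321 to 0.765. Its unadjusted p of 0.00283 placed it 12th of 5280, and its limma adjusted p was 1.00. Leaving out the 5 array pairs that had not correlated below 0 gave -0.505, and arrays scaled to a common median absolute deviation gave -0.694.

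The SERPINA3-3 day means were 5.80 ± 0.92 (SD) on day -65, 6.34 ± 1.39 on day -30, 6.70 ± 0.52 on day -14, 6.50 ± 0.33 on day 1, 5.59 ± 0.82 on day 14, 5.66 ± 0.78 on day 28 and 4.94 ± 1.5 on day 49. On day 28 the cows had 6.0, 6.63, 5.89, 5.20 and 4.60, against 6.49, 6.93, 6.10, 6.26 and 6.73 on day 1. All 5 cows were lower on day 28, as were 157 (3.07%) of 5112 clones, and the ranges overlapped through cow 6983. That difference was -0.84 ± 0.46 (SE; unadjusted p = 0.0805, limma adjusted p = 0.666), -0.52 without cow 7188 and 0.04 with arrays scaled to a common median absolute deviation. Day 1 against day -30 gave 0.16 ± 0.46, a sign that also turned with scaled arrays (-1.66), without cow 6934 (-0.25) and without cow 7188 (-0.20). For the days as a whole F was 3.01 (unadjusted p = 0.0251, limma adjusted p = 0.877). Cattle carry several closely similar SERPINA3 genes, and a cDNA clone can bind related transcripts, so the ratio may hold more than 1 of them.

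**Figure D2:**
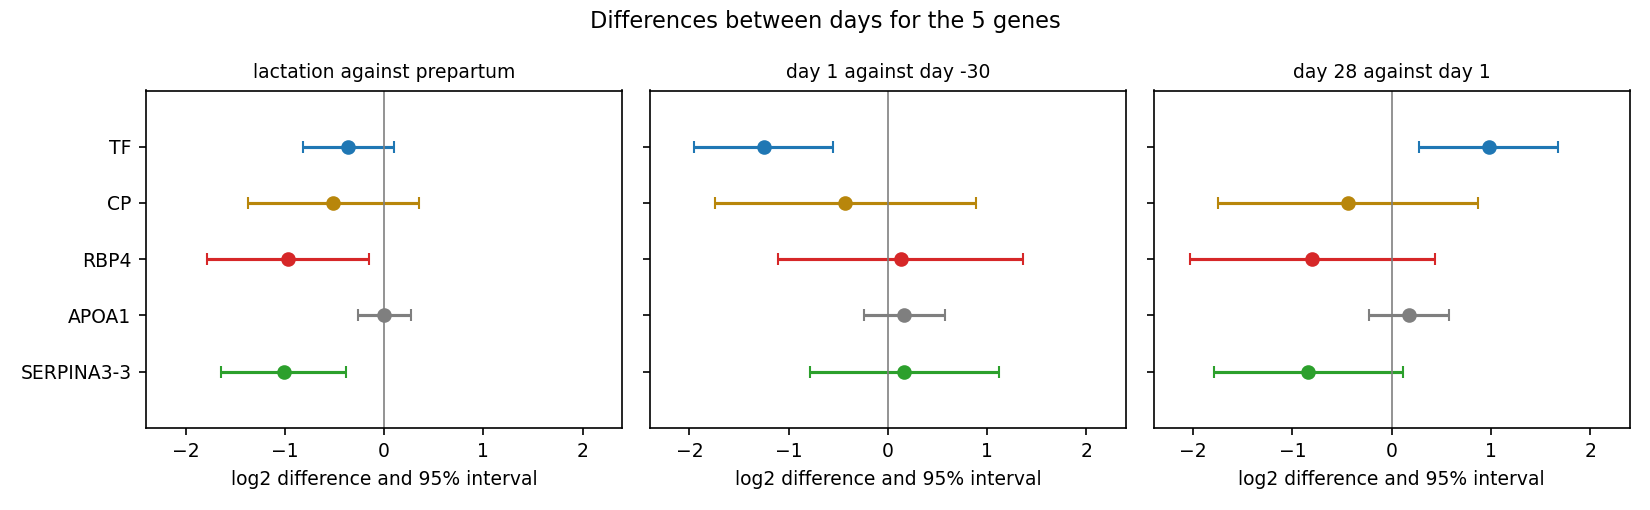
Estimated log2 differences (x axis) of the 5 genes for lactation against prepartum, day 1 against day -30 and day 28 against day 1; points are limma estimates and bars their unadjusted 95% intervals. The TF intervals for day 1 against day -30 (-1.95 to -0.56) and day 28 against day 1 (0.28 to 1.68) and the lactation intervals of RBP4 (-1.78 to -0.15) and SERPINA3-3 (-1.64 to -0.39) leave out 0, and no estimate passed after adjustment over all clones.

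Each cow-day value is the mean of 2 arrays, and these arrays differed in a way that depended on the gene. With liver in Cy5 the ratio was higher than with liver in Cy3 in 26 of 30 cow-days for TF and for RBP4, in 25 for SERPINA3-3, in 19 for APOA1 and in 13 for CP. The mean difference, Cy5 minus Cy3, was 0.89 ± 0.79 (SD, n = 30 cow-days) for TF, 1.19 ± 1.94 for RBP4, 0.83 ± 1.40 for SERPINA3-3, 0.09 ± 0.60 for APOA1 and -0.13 ± 1.22 for CP. The exchange of dyes cancels such an offset in the mean of a pair. The arrays of a pair correlated over cow-days at 0.54 for TF, 0.48 for CP, 0.38 for SERPINA3-3 and 0.24 for RBP4, whereas the 2 spots on 1 array correlated at 0.99 for TF, RBP4 and SERPINA3-3 and at 0.79 for CP, which had 2 missing spots. For RBP4 the spread therefore lay between arrays and not between spots: its spots never differed by more than 0.46, but the exchanged arrays differed by more than 3 in 7 cow-days, at most by 5.14. TF differed by more than 3 in 1 cow-day and SERPINA3-3 in 5.

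**Figure D3:**
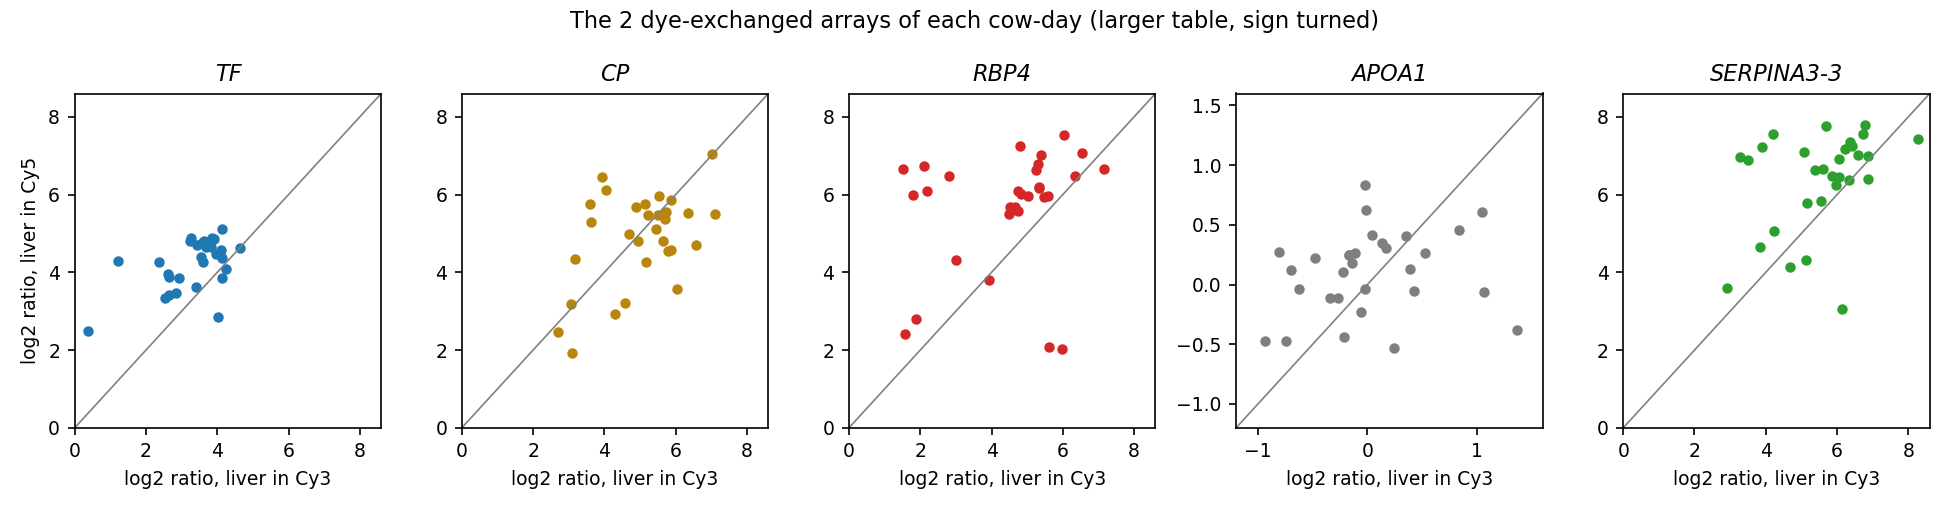
Log2 ratio with liver in Cy5 (y axis) against log2 ratio with liver in Cy3 (x axis) for 30 cow-days (larger table), 1 panel per gene, with the line of equality. RBP4 has 10 pairs in which 1 or both arrays lie under 3, and in its other 20 pairs both arrays lie above 3, while TF lies in a band mostly above the line.

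The single arrays of RBP4 fell into a low and a high range. On 12 of 60 arrays RBP4 lay between 1.51 and 2.99, and on the other 48 between 3.79 and 7.53. The dividing value of 3 was chosen after these values were seen and carries no test. The low arrays came from 10 cow-days and all 5 cows, 8 with liver in Cy3 and 4 with liver in Cy5. They were 3 of 10 arrays on day -30, 1 of 6 on day 14, 4 of 10 on day 28 and 4 of 8 on day 49, and 0 on days -65, -14 and 1. Only on day -30 of cow 6934 and on day 49 of cow 7188 were both arrays of a pair low. Of the 12 low arrays 9 were thus from lactation days. The RBP4 means of these days were the lowest, but they average the same values and are no separate observation.

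SERPINA3-3 moved with RBP4 from array to array in the larger table. On the 12 arrays with low RBP4, SERPINA3-3 lay between 2.92 and 5.37 (median 3.88), against 4.14 to 8.28 (median 6.47) on the other 48. The genes correlated at r = 0.90 over the 60 arrays, at 0.90 within arrays with liver in Cy5 and at 0.88 within arrays with liver in Cy3. Over the 30 cow-days r was 0.89 and Spearman's rho 0.89, and r was 0.86 after each cow's mean was removed. Leaving out the 2 cow-days farthest from the RBP4 median gave 0.88. The ranges of TF, CP and SERPINA3-3 on these sets of arrays overlapped. CP had a median of 3.98 on the low RBP4 arrays, against 5.46 on the others, and TF 3.52 against 4.00. The arrays with low RBP4 also tended to have narrower distributions. The SD over all rows of an array had a median of 0.883 (0.703 to 1.36), against 1.14 (0.907 to 1.41) on the other 48, with overlapping ranges. The correlation of the ratio with that SD over 60 arrays was 0.44 for RBP4, 0.44 for SERPINA3-3 and -0.14 for TF. With the number of rows measured it was -0.42, -0.40 and -0.18 in the same order. The part of array spread or of rows measured in these values was not tested. These correlations share arrays and are given as descriptions.

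**Figure D4:**
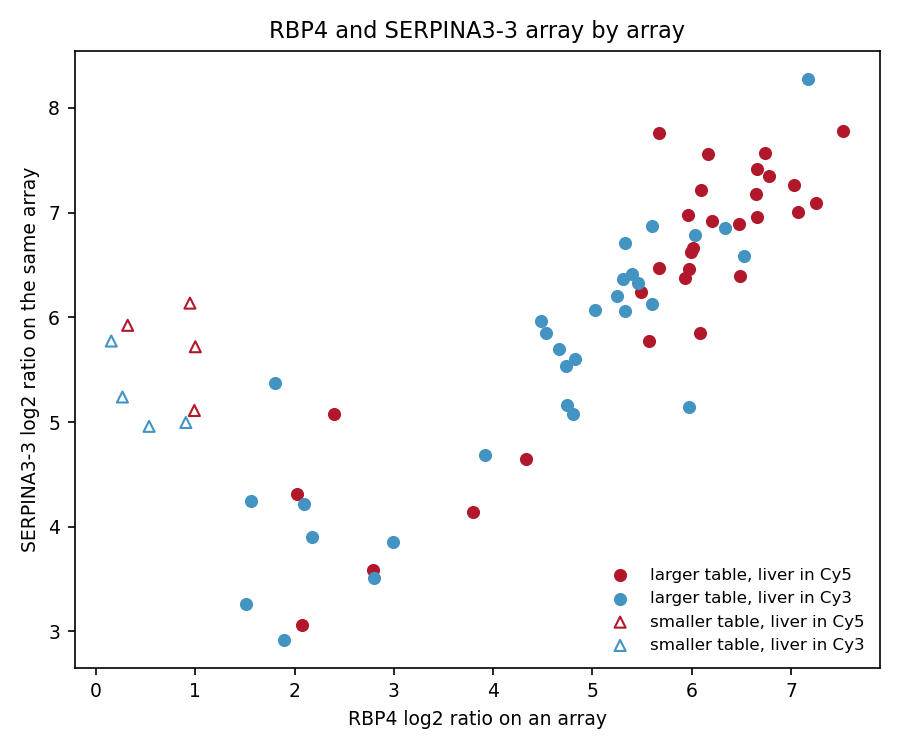
SERPINA3-3 log2 ratio (y axis) against RBP4 log2 ratio (x axis) on each array; filled circles are the 60 arrays of the larger table, open triangles the 8 arrays of the smaller table, red with liver in Cy5 and blue with liver in Cy3. Circles run along a diagonal with 12 arrays under an RBP4 value of 3, while the triangles lie apart at RBP4 values of 0.15 to 1.00 with SERPINA3-3 at 4.96 to 6.14.

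The smaller table gave a different RBP4 ratio. RBP4 lay at 0.24 and 0.61 on days -14 and 14 of cow 6934, at 0.77 on day -14 of cow 7079 and at 0.95 on day 14 of cow 7188. The mean was 0.64 ± 0.30 (SD, n = 4 cow-days), against 5.41 ± 0.75 (n = 6 cow-days, 4.00 to 6.21) in the larger table on the same days, and the ranges did not overlap. The difference of -4.77 was the second in size of the 5112 clones with values in all 10 cow-days. Both tables name the clone by the same identifier, but whether the same DNA was spotted on both kinds of array could not be checked here, for RBP4 or for any other clone. All 8 arrays of the smaller table lay between 0.15 and 1.00, below the 12 low arrays of the larger one. SERPINA3-3 did not go with it there: it averaged 5.48 ± 0.36 in the smaller table and 6.15 ± 0.86 in the larger, with overlapping ranges. Over the 8 arrays of the smaller table, within that narrow RBP4 range, RBP4 and SERPINA3-3 correlated at r = -0.10.

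TF differed the other way. It was at 6.65, 6.01, 5.53 and 6.10 in the 4 cow-days of the smaller table, mean 6.07 ± 0.46, against 3.76 ± 0.49 in the 6 of the larger, again without overlap. That difference of 2.31 was in place 23 by size, where the median clone differed by 0.49 and 9 clones differed by more than 3. CP averaged 4.55 ± 1.98 in the smaller table and 4.79 ± 0.94 in the larger, and APOA1 0.51 ± 0.44 and -0.08 ± 0.36, and for both the ranges overlapped. CP was again the most spread, with 2.64 on day -14 of cow 7079 and 6.67 on day 14 of cow 7188. The tables hold different cow-days on arrays with different rows and were deposited separately, so no test was run across them. The lowest larger-table RBP4 values of cows 6934, 7079 and 7188 on any day were 1.98, 4.14 and 2.34. The highest RBP4 value in the smaller table was 0.95. No cow-day was in both tables, so table and cow-day cannot be told apart. Over the 5112 clones the table means correlated at r = 0.69 across clones, which are not independent replicates.

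**Figure D5:**
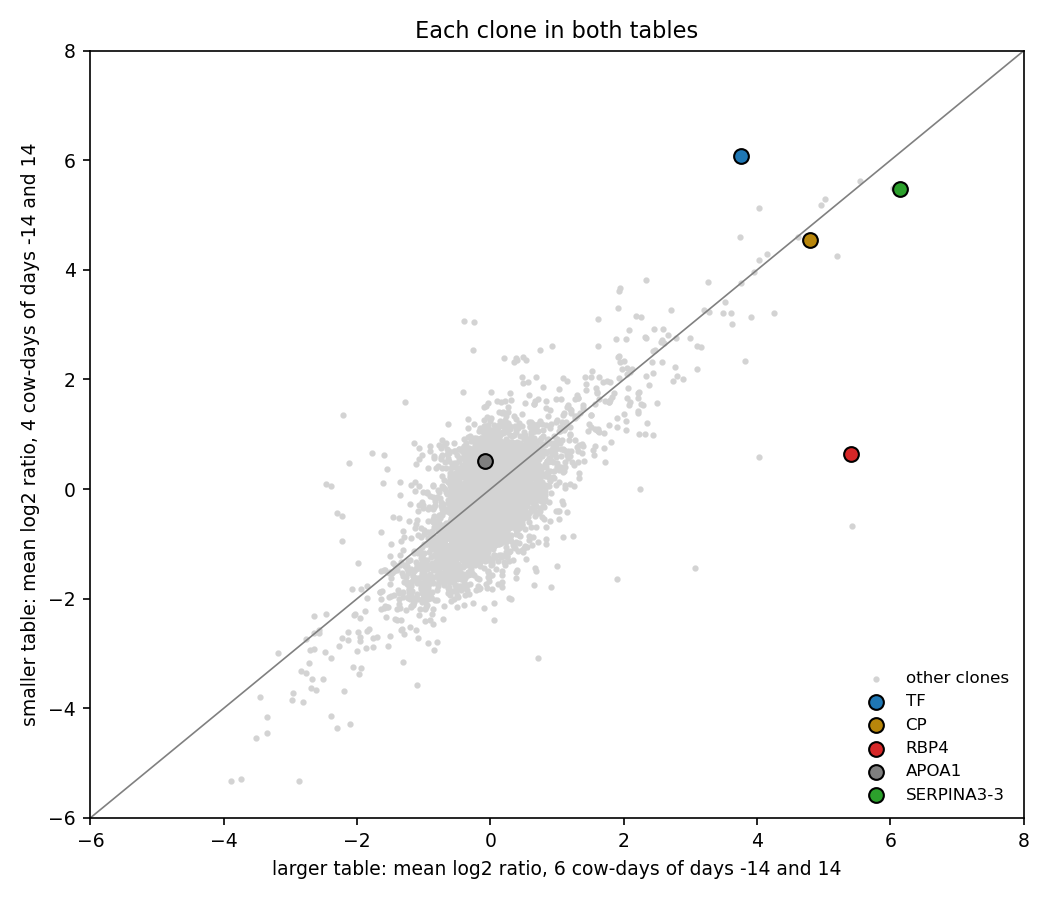
Mean log2 ratio of each of 5112 clones on days -14 and 14 in the smaller table (y axis, 4 cow-days) and in the larger table (x axis, 6 cow-days), with the line of equality. RBP4 lies far below the line at 0.64 in the smaller and 5.41 in the larger table, TF above it at 6.07 and 3.76, and CP, APOA1 and SERPINA3-3 lie nearer to it.

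For each gene, the 3 named clones with the highest Pearson r over the 30 cow-days were taken from 4878 clones measured in all of them. RBP4 was most like C1R, a protease of the first complement component (r = 0.97), LOC338050, listed with the synonym PCI (r = 0.92), and SPINT1, a Kunitz-type protease inhibitor of epithelia (r = 0.92). SERPINA3-3 was most like LOC616364 (r = 0.93), UNC13D, a factor of granule exocytosis (r = 0.92), and C1R (r = 0.90). These clones too lay far above the reference, with mean ratios between 3.78 for SPINT1 and 5.11 for UNC13D. Leaving out the 2 cow-days farthest from the gene's median left these r between 0.87 and 0.95.

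Some of these clones shared the difference between tables and others did not. UNC13D was at -0.68 in the smaller table and 5.42 in the larger, the largest difference of the 5112 clones, and SPINT1 was at 0.58 and 4.02, in place 8. C1R was at 4.60 and 4.62, LOC616364 at 5.19 and 4.96, and LOC338050 at 3.22 and 4.25. RBP4, SPINT1 and UNC13D thus had ratios under 1 in the smaller table, and C1R, the clone most like RBP4 in the larger table, did not.

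TF was most like GALM, the galactose mutarotase (r = 0.91), H2BC21, a histone H2B (r = 0.87), and PEBP1, an inhibitor of RAF kinase (r = 0.85). CP was most like IL13RA1, a chain of the interleukin 13 receptor (r = 0.83), 1 clone of ABCA1, which hands cholesterol to APOA1 (r = 0.82), and HACD2, a dehydratase of fatty acid elongation (r = 0.81). APOA1 was most like THG1L, a tRNA guanylyltransferase (r = 0.81), UHRF2, a ubiquitin ligase (r = 0.80), and LRRFIP1 (r = 0.79), all with mean ratios near 0. The 95th percentile of r over all clones was 0.63 for TF, 0.62 for CP, 0.48 for RBP4, 0.59 for APOA1 and 0.43 for SERPINA3-3. Between the 5 genes, TF and CP correlated at r = 0.55 (rho = 0.33), and at 0.33 without the 2 cow-days farthest from the TF median.

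Few of the other secreted plasma proteins in a list drawn up here were annotated on the array. The list was not complete, and C1R, SERPING1 and RARRES2, named elsewhere in the text, were not in it. Of 70 others listed, 2 were present, and neither passed in any test. SELENOP, the selenium carrier of plasma, had a mean ratio of 2.23 and differed by 0.12 ± 0.32 (SE) for lactation against prepartum, -0.34 ± 0.48 for day 1 against day -30 and 0.63 ± 0.48 for day 28 against day 1. PROS1, the protein S cofactor of anticoagulation, was at 0.52 with differences of 0.03 ± 0.19, -0.11 ± 0.29 and 0.39 ± 0.29. Both were below 0 for day 1 against day -30 and above 0 for day 28 against day 1, as TF was. Most clones leaned the same way: 42.9% of all clones were above 0 for the first and 61.9% for the second.

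Of 35 other serpins listed by symbol, 3 were present and 0 passed. LOC338050, given above with the synonym PCI, was not in this list. SERPING1, the C1 inhibitor, had a mean ratio of 1.07 and a lactation against prepartum estimate of -0.47 ± 0.19 (SE), SERPINB1, an inhibitor of neutrophil proteases inside cells, -0.21 ± 0.15, and SERPINI1, neuroserpin, 0.00 ± 0.11. The median of the 3 was -0.21, against -0.01 over all clones. For day 28 against day 1 they stood at 0.32, -0.19 and -0.39.

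The genes that handle what the carriers transport also gave 0 calls. Of 14 iron genes tested, 11 were below 0 for lactation against prepartum (median -0.12), 11 for day 1 against day -30 (median -0.18) and 5 for day 28 against day 1 (median 0.14). The lowest lactation estimates were those of BLVRB, a biliverdin reductase, at -0.45 ± 0.20 (SE) and the haem oxygenase HMOX2 at -0.31 ± 0.16, and the highest those of the metal importers SLC11A2 at 0.22 ± 0.18 and SLC39A8 at 0.19 ± 0.25. Of 5 copper genes, 4 were below 0 in lactation (median -0.12), led by ATOX1, the chaperone that hands copper to the pumps that load CP, at -0.57 ± 0.15 (limma adjusted p = 1.00). COX17, CCS and SOD1 were at -0.13 ± 0.17, -0.02 ± 0.10 and 0.01 ± 0.23.

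Of 8 retinoid genes tested, 4 were above and 4 below 0 in lactation (median 0.03). RARRES2, chemerin, had a mean ratio of 3.88 and an estimate of -0.57 ± 0.27 (SE), the retinoid receptor RXRB -0.10 ± 0.11, and the retinol dehydrogenases RDH11 and DHRS9 0.17 ± 0.15 and 0.20 ± 0.14. Of 4 genes of high-density lipoprotein and cholesterol efflux, the median was 0.02 in lactation. NAXE, which binds APOA1, was at -0.81 ± 0.19 for day 1 against day -30 and at 0.80 ± 0.19 for day 28 against day 1, while ABCA1, here by another clone, and the lipoprotein receptor SCARB1 were at 0.02 ± 0.29 and 0.03 ± 0.39 for day 1 against day -30. None of these passed in limma.

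Among regulators, 7 hepatocyte transcription factors had a median of -0.04 in lactation against prepartum, from -0.09 ± 0.18 (SE) for CEBPA to 0.27 ± 0.23 for HLF. Of 13 genes of acute phase signalling, 11 were below 0 for lactation against prepartum (median -0.06) and 11 for day 1 against day -30 (median -0.21), and 11 were above 0 for day 28 against day 1 (median 0.15). STAT3, which carries the interleukin 6 signal to acute phase genes, was at -0.48 ± 0.21 in lactation, CD14 at -0.45 ± 0.18, SOCS1, the feedback inhibitor of that signal, at 0.25 ± 0.15 and the glucocorticoid receptor NR3C1 at 0.16 ± 0.23. Over all clones 47.8% were above 0 for lactation against prepartum, 42.9% for day 1 against day -30 and 61.9% for day 28 against day 1, so most lists leaned as all clones did around day 1. The lists were not tested as sets.

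Cell type markers are given as a description. They do not check the tissue label, because the likely direction of the ratio was inferred from tissue genes. The 4 hepatocyte markers tested, ASGR2, SLC10A1, ASS1 and ASL, had mean ratios of 2.50, 3.79, 0.63 and 0.00, and all 4 were below 0 in lactation (median -0.36). The 13 macrophage and Kupffer cell markers had mean ratios from 0.04 to 3.03, and 11 were below 0 in lactation (median -0.41), led by C1QC at -0.74 ± 0.27 (SE) and C1QB at -0.64 ± 0.31. Their part in the lower lactation estimates of RBP4 and SERPINA3-3 was not tested. The 15 stellate cell and matrix markers had a median ratio of -0.80, and 11 were above 0 in lactation (median 0.09), with COL3A1 highest at 0.59 ± 0.24 and FN1 lowest at -0.46 ± 0.22. The lists of endothelial, bile duct, lymphocyte and neutrophil, and erythroid and platelet markers held 6, 10, 4 and 1 tested genes with lactation medians of -0.01, -0.05, 0.31 and 0.20, and 0 of them passed.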

How the data were processed

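Per the labels, images were quantified with GenePix. The deposited value of a spot was taken as a log2 ratio of its dye channels. For background, flags and normalization, the authors' steps were not given in the sources used here. The log2 base was inferred from a pile-up at a size of 1, with 4952 values there to 3 decimals, either sign. Just under that size there were 141 values and just over it 124. Other sizes were not counted, so the base is likely, not settled. The array median was subtracted, Cy3-liver arrays were turned in sign, the 2 spots of a clone and then the exchanged pair were averaged, and clones with values in at least 3 cows on each day were tested (5280 of 5693). Symbols were updated through gene identifiers for 5591 clones. limma 3.58.1 in R 4.3.3 fitted day and cow as fixed terms with 19 residual degrees of freedom; all tests were 2-sided with Benjamini-Hochberg adjustment over all clones. Cow is a block because the animals were sampled repeatedly; the average correlation of deviations from day means was 0.14 within a cow and -0.03 between cows and days. The tables were never pooled. Scripts were tested on simulated data. The genes, lists and tests were chosen with earlier results of these data known. Named clones are the 5 genes, clones past a test, the 3 most like each gene, and per list the 2 highest and 2 lowest lactation estimates. Alternatives changed the centring, scaling, dye, block, weights, filters, spots, moderation and cows.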

Additional observations from a re-analysis of the deposited data

Results flagged for a closer look

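Among the groups of 4 or 5 cows, 30 were checked for a value far from the others and 2 had one; chance alone gives about 5% of such groups. Both were CP in cow 7188. They are not separate observations, because the mean over days includes the day 1 value, and the groups share the same cows. On day 1 the CP log2 ratio of cow 7188 was 2.588, while the other 4 cows lay between 5.45 and 5.87. Its mean over days was 4.119, while the other 4 cow means lay between 4.99 and 5.24. Both arrays of that cow-day were low, at 2.70 with liver in Cy3 and 2.47 with liver in Cy5.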

How the results depend on the processing

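Over 17 alternatives, 0 of 340 adjusted p-values of the 5 genes passed 0.05, the lowest being 0.0542 for SERPINA3-3 over days. The counts over all clones moved as follows, and the cause was not tested. The F test over days called 0 clones without centring (205 at an unadjusted p under 0.05), 0 with arrays scaled to a common median absolute deviation (362), 0 with only Cy5 arrays (410), 0 with no replicate block (172), 0 without cow-days whose arrays did not oppose (316), 4 with array quality weights, and 0 to 0 with 1 cow left out (193 to 393). Day 1 against day -30 called 10 with scaled arrays, 0 with only Cy5 arrays (514), 2 with weights, and 0 to 1 with 1 cow left out, 0 without cow 7188 (310). Day 28 against day 1 called 6 with only Cy3 arrays, and 0 to 1 with 1 cow left out, 1 without cow 6934. Without the cow block day 1 against day -30 kept a count of 1, and no call on the 5 genes changed. Signs of small estimates turned. With scaled arrays CP was at 0.37 and SERPINA3-3 at 0.0432 for day 28 against day 1, and RBP4 at -0.849 and SERPINA3-3 at -1.66 for day 1 against day -30. RBP4 was at -0.201 with only Cy5 arrays, and APOA1 at -0.112 in lactation against prepartum with weights. With 1 cow left out, day 1 against day -30 ran from -0.784 to 0.644 for RBP4 (-0.784 without cow 6934, -0.11 without cow 7188) and from -0.254 to 0.641 for SERPINA3-3 (-0.254 without cow 6934, -0.199 without cow 7188), and lactation against prepartum from -0.097 to 0.0661 for APOA1 (-0.097 without cow 6983, -0.0397 without cow 7188). The TF estimate for day 1 against day -30 kept its sign under all 17 alternatives, from -1.45 to -0.917 with 1 cow left out and at -2.74 with scaled arrays. Leaving arrays uncentred put the median of all clones at 0.137 for lactation against prepartum and 0.106 for day 28 against day 1. Without cow-days whose arrays did not oppose, the lactation estimates were -0.446 for RBP4, -0.505 for SERPINA3-3, -0.11 for CP and -0.209 for TF. With scaled arrays CP for day 1 against day -30 was at -2.12, and TF was at -0.138 in lactation and 1.56 for day 28 against day 1. For day 28 against day 1, Cy3 and Cy5 arrays alone gave 1.48 and 0.473 for TF, -1.29 and -0.304 for RBP4 and -0.779 and -0.102 for CP. The mean TF ratio was 3.35 with only Cy3 arrays and 4.21 with only Cy5 arrays. Without channel intensities, signal over background is unknown.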
